A study of Homo sapiens with 12 samples.

Results

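The genes described here are the nuclear genes named for subunits of the mitochondrial respiratory chain and of ATP synthase, taken by symbol: NDUFA, NDUFB, NDUFC, NDUFS and NDUFV genes for complex I, SDHA to SDHD for complex II, UQCR genes for complex III, the COX genes of families 4 to 8 that carry a letter from A to C for complex IV, and ATP5 genes for complex V. Of the 25680 gene symbols in the deposited tables, 91 matched: 42 for complex I, 4 for complex II, 10 for complex III, 15 for complex IV and 20 for complex V. Of the 91, 80 encode a subunit and 11 do not. Those 11 are the antisense genes NDUFA6-AS1, NDUFB2-AS1 and NDUFV2-AS1, the readthrough genes NDUFC2-KCTD14 and ATP5J2-PTCD1, the copies or pseudogenes ATP5EP2, ATP5L2, UQCRBP1 and UQCRHL, the coupling factor ATP5S and the assembly factor ATP5SL.

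The study compared RNA from U266 and MM.1S, established human multiple myeloma cell lines grown from malignant plasma cells. Each line received DMSO, the solvent, or 6 µM IT848, which the labels call an NF-kB inhibitor, for 6 h. Each of the 4 groups (U266 with DMSO, U266 with IT848, MM.1S with DMSO, MM.1S with IT848) had 3 libraries, and both lines were grown in RPMI medium with 20% serum. The labels do not say if replicate libraries are from separate cultures; p-values then measure only the spread between these libraries, which may be technical. The only control was DMSO, and RNA was measured, not protein or respiration.

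The respiratory chain sits in the inner mitochondrial membrane. Complex I takes electrons from NADH and complex II takes them from succinate; they pass through coenzyme Q, complex III and cytochrome c to complex IV, which reduces oxygen, and the proton gradient built on the way drives ATP synthase, complex V. Complexes I, III, IV and V combine nuclear-encoded subunits with subunits made from mitochondrial DNA, which are not among the genes described here. Complex I has a core of catalytic subunits, shared with its bacterial relatives, surrounded by accessory subunits found in eukaryotes.

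Library totals lay between 50627690 and 72039748 transcript-level counts. Because the transcripts of 1 gene mostly hold the same reads, these totals count many reads more than once. Levels are given as CPM, the counts summed over the transcripts of a symbol and divided by the library's total scaled by edgeR's trimmed mean of M-values (TMM); they compare 1 gene between libraries, not genes with each other. The 7 plasma cell markers were detected in all libraries and their sum was lower with IT848 in both lines, without overlap: 537 to 571 FPKM with DMSO and 409 to 419 with IT848 for U266, and 703 to 709 against 572 to 589 for MM.1S, with SDC1 (syndecan-1) between 98.02 and 101 FPKM with DMSO and between 46.0 and 48.5 with IT848 in MM.1S. The markers did not all move the same way. SDC1, IRF4, XBP1, PRDM1 and CD38 were lower with IT848 in both lines. SLAMF7 was higher in both, from 23.8 to 24.0 FPKM with DMSO and from 32.0 to 33.6 with IT848 in U266. In MM.1S SLAMF7 ran from 99.8 to 102 and from 131 to 135 FPKM. TNFRSF17 was lower in U266 but higher in MM.1S (103 to 114 FPKM with DMSO and 118 to 145 with IT848). The 4 T or NK markers summed to at most 1.01 and 4 myeloid markers to at most 0.512. HBB, a globin, moved with treatment in MM.1S (3.14, 3.31 and 2.98 FPKM with DMSO and 6.34, 7.05 and 8.17 with IT848), with HBA1 at or near 0, and the 4 stromal markers summed to between 1.98 and 2.51 FPKM with DMSO and between 2.80 and 3.47 with IT848 there, and to between 3.65 and 4.31 and between 4.61 and 5.73 FPKM in U266; the part of these markers in any result below was not tested. In 2 libraries reads of genes specific to the other line stood out. U266 IT848 replicate 1 held 6 MM.1S-specific genes at 0.987% of their MM.1S level. MM.1S DMSO replicate 2 held 23 U266-specific genes at 0.425% of their U266 level. The other libraries held 0.0138% to 0.0596%. The genes were chosen to lie below 0.1 CPM in the U266 DMSO libraries, or in MM.1S DMSO replicates 1 and 3. The low values there were set by this choice. The other treated libraries, not used for the low limit, held 0.0493% to 0.0596%. Whether the reads were carried-over RNA or wrongly assigned was not tested. Below, the 2 are called the libraries with RNA of the other line. The main counts are therefore also given without both. For counts in this or any other alternative setting, the share of all genes called is given only where it is printed.

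Motifs of known nuclear regulators were counted in the promoters of these genes, and a few promoters are shown because they belong to genes described below. Promoters (250 bases before to 50 bases after the RefSeq start, GRCh38.p14) were matched for 72 of the 91 genes and searched on both strands. The core motif of nuclear respiratory factor 1 (NRF1), GCATGCGC, a regulator known for respiratory chain genes, was found in 14 of 72 (19.4%), against 3.27% of all 27305 promoters and 5.25% of the 12676 promoters of tested genes. The YY1 motif AAGATGGC was found in 12 (16.7%, against 3.03% and 4.74%), and the ETS motif CCGGAAGT in 9 (12.5%, against 4.44% and 7.83%). The antioxidant response element TGACNNNGC, the motif of NRF2, was found in 10 (13.9%), against 13.6% and 14.8%. NDUFA6 and its antisense gene NDUFA6-AS1 each count for the NRF1 motif (at -166 and at -2) and the YY1 motif (at 26 and at -193). The spacing is the same in reverse order, so 1 shared stretch appears to be counted under both genes.

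A match is a description of letters and not a binding site. The 250 bases before the start are shown for 5 genes with the NRF1 motif, with motif letters in capitals: NDUFB4 (chr3:120596086-120596335, plus strand), COX6A1 (chr12:120437863-120438112, plus strand) and ATP5I, named ATP5ME in RefSeq (chr4:674277-674526, minus strand, also with the antioxidant element, whose letters overlap the NRF1 motif), which rose with IT848 in MM.1S, and NDUFS7 (chr19:1383657-1383906, plus strand) and SDHB (chr1:17054033-17054282, minus strand), which were not called. Coordinates are of GRCh38.p14, while the deposited files were made on hg19.
NDUFB4: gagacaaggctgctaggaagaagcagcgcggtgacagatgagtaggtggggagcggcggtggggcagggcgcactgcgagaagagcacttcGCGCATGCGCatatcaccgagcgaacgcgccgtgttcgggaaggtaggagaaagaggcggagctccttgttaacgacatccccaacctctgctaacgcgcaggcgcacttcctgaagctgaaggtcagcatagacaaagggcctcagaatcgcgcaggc
COX6A1: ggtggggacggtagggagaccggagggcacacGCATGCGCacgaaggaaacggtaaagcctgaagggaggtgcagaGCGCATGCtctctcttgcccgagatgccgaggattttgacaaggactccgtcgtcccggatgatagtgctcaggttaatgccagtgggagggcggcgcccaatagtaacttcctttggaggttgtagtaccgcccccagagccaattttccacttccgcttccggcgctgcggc
ATP5I: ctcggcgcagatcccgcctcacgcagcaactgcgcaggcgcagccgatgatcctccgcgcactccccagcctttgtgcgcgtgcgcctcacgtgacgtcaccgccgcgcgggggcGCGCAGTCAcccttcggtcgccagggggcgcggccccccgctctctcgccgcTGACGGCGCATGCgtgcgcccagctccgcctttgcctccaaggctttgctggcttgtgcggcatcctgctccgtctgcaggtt
NDUFS7: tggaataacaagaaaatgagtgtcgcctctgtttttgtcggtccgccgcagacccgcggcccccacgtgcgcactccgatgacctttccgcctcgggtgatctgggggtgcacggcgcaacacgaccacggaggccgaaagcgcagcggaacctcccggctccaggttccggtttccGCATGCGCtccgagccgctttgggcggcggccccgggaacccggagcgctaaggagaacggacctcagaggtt
SDHB: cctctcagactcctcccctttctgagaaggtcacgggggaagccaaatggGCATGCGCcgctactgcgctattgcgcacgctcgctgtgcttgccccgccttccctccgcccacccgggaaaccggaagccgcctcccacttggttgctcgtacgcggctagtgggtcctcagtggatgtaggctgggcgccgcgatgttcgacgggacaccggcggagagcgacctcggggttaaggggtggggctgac

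By the response to IT848 the motifs were spread over both kinds of gene. In MM.1S the NRF1 motif was in 7 of the 37 promoters of genes that rose and in 7 of the 34 of genes tested that did not rise; the ETS motif was in 6 and 3, the antioxidant element in 6 and 4, and the YY1 motif in 5 and 7. For the NRF1 and YY1 motifs NDUFA6 is among the genes that rose and NDUFA6-AS1, with the same stretch, among those that did not. These are counts with no test.

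In U266 the respiratory chain genes hardly moved with IT848. Of 86 genes with enough counts to test, none was called higher and 1, SDHA, was called lower, where 4.03% of all 16782 genes tested were called higher and 4.98% lower (a call is an adjusted p below 0.05 in edgeR's quasi-likelihood test, Benjamini-Hochberg over all genes tested). At an unadjusted p below 0.05 the counts were 0 higher and 5 lower, and DESeq2 called 0 higher and 3 lower. Without the 2 libraries with RNA of the other line 0 were called in either direction. The median log2 fold change was 0.005 over the respiratory chain genes and 0.006 over all genes. By complex, the medians over subunit genes ran from -0.02 for complex II to 0.04 for complex IV. Fewer cells of a kind and less RNA per cell cannot be told apart in bulk RNA such as this.

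In MM.1S 47 of the 86 genes rose with IT848 and 2 fell, SDHA and ATP5A1. That is 54.7% called higher, against 18.7% of all genes, and 2.33% called lower, against 19.6%. The median log2 fold change was 0.26, against -0.01 over all genes. The rises were small: the largest, COX7A2, came to 0.60 on the log2 scale. Without the 2 libraries with RNA of the other line 36 rose and 1 fell, without MM.1S DMSO replicate 1 the count of rises was 26, and without MM.1S IT848 replicate 3 it was 31.

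On leaving out any 1 library, 26 of the 47 rises stayed called. The other 21, ATP5C1, ATP5E, ATP5F1, ATP5I, ATP5O, COX5B, COX6A1, COX6B1, COX6C, COX7B, NDUFA6, NDUFB1, NDUFB2-AS1, NDUFB3, NDUFB6, NDUFS4, NDUFS5, NDUFV3, UQCR10, UQCRB and UQCRH, were all lost without MM.1S DMSO replicate 1. Without MM.1S IT848 replicate 3 the test no longer called 16 of these 21, and without MM.1S DMSO replicate 2 it no longer called 13. Without MM.1S IT848 replicate 2 it lost COX6C, NDUFA6, NDUFV3 and UQCRH, and without MM.1S IT848 replicate 1 NDUFV3. Leaving out a U266 library lost UQCRB (5 of the 6 libraries, all but IT848 replicate 1), ATP5F1 (DMSO replicate 3 or IT848 replicate 2) and NDUFA6 (DMSO replicate 3).

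The libraries of the treated MM.1S group differed among themselves. Relative to the DMSO mean of the line, the median respiratory chain gene stood at 0.08, 0.19 and 0.43 on the log2 scale in IT848 replicates 1, 2 and 3, and at -0.09, -0.01 and 0.11 in the DMSO libraries. DMSO replicate 3 therefore lay above IT848 replicate 1. The share of all counts, taking 1 transcript per gene, that fell on these genes was 0.972%, 1.01% and 1.08% in the DMSO libraries and 1.04%, 1.15% and 1.30% in the IT848 libraries of MM.1S, again with an overlap. In U266 that share was 0.913% to 0.936% with DMSO and 0.896% to 0.941% with IT848. Of the 47 genes that rose, 26 had all 3 IT848 libraries above all 3 DMSO libraries. Those 26 are 30.2% of the 86 genes tested, and the same pattern held for 22.4% of all genes, so by this cruder measure the respiratory chain genes stood nearer to the background than by the test.

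**Figure D1:**
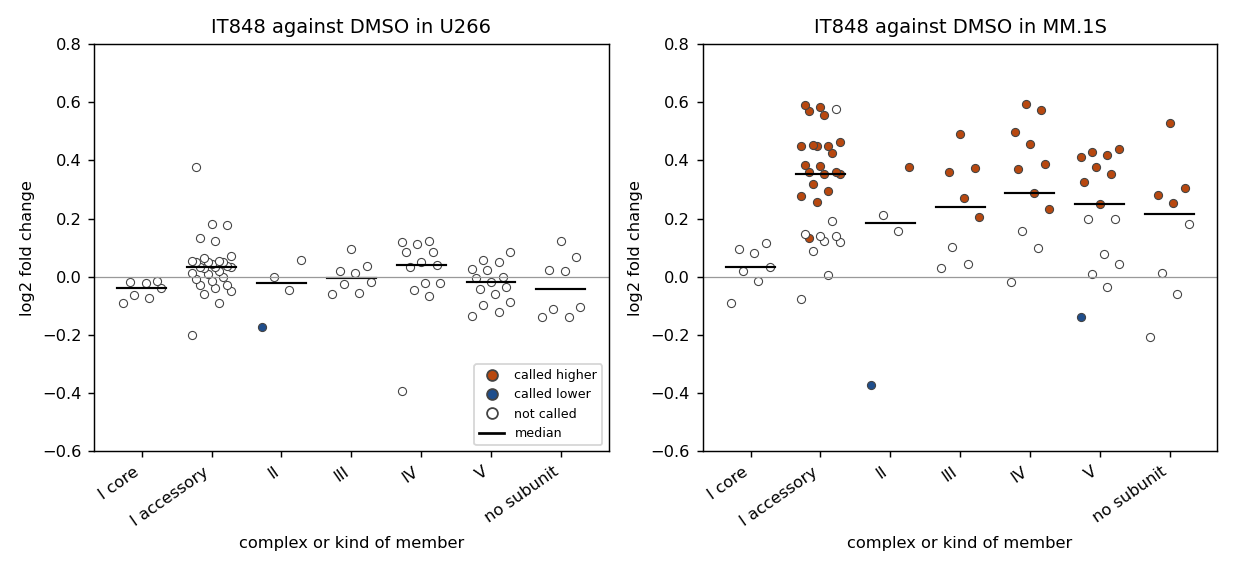
Log2 fold change of each respiratory chain gene with IT848 against DMSO in U266 and in MM.1S, by complex (I split into core and accessory subunits, with the 8 tested genes that encode no subunit in their own column). Each point is 1 gene, filled where it was called, and the bars are medians. COX6A2 and COX7B2, with almost no counts in MM.1S, are left out of the MM.1S panel only. In U266 the points run from -0.39 (a complex IV gene, not called) to 0.38 (NDUFA4L2, not called), and only SDHA is called. In MM.1S the median of complex I accessory genes is 0.35 and that of complex I core genes 0.03.

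Of 31 tested genes with the name of a complex I accessory subunit, 21 rose in MM.1S and 0 fell, with a median log2 fold change of 0.35. The 31 include NDUFA4, which rose, and its relative NDUFA4L2, which did not; without both, 20 of 29 rose, with the same median of 0.35. Of the 31, 17 rose without the 2 libraries with RNA of the other line, and 14 without MM.1S DMSO replicate 1, and leaving out 1 library moved the median between 0.22 and 0.45. NDUFA2, an accessory subunit of the arm that oxidises NADH, measured 82.5, 90.0 and 99.4 CPM in the DMSO libraries of MM.1S and 103, 135 and 171 CPM with IT848. Every treated library exceeded every control library, and the log2 fold change was 0.59 ± 0.14 (SE, n = 3 per group, adjusted p = 0.00477). In U266 NDUFA2 measured 121, 124 and 119 CPM with DMSO and 136, 120.0 and 124 CPM with IT848, and the groups overlapped.

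NDUFB1, an accessory subunit of the membrane arm, measured 9.90, 10.1 and 12.1 CPM with DMSO and 11.9, 15.4 and 20.9 CPM with IT848 in MM.1S. The lowest treated library fell below the highest control library, although the test called the rise (0.58 ± 0.17, adjusted p = 0.0152; 0.0621 without MM.1S DMSO replicate 1 and 0.0530 without MM.1S IT848 replicate 3). NDUFB2, also in the membrane arm, measured 31.5, 34.1 and 37.8 CPM with DMSO and 36.8, 50.7 and 64.4 CPM with IT848, again with an overlap (0.56 ± 0.14, adjusted p = 0.00895). The overlapping treated library was IT848 replicate 1 in each case. Among the 11 NDUFB genes 9 rose, among the 14 accessory NDUFA genes 8 rose, and 10 accessory genes of complex I were not called. NDUFA9 (0.12) and NDUFC1 (0.01) were among those 10.

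NDUFA4 rose by a similar amount. It carries a complex I name but is known as a subunit of complex IV. It measured 60.8, 61.5 and 70.7 CPM with DMSO and 72.4, 88.8 and 125 CPM with IT848 in MM.1S, with no overlap (0.57 ± 0.15, adjusted p = 0.0112). In U266 its libraries ranged from 48.9 to 58.6 CPM with DMSO and from 50.01 to 58.1 CPM with IT848.

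None of the 7 nuclear core subunits of complex I was called in either line. Their median log2 fold change was 0.03 in MM.1S and -0.04 in U266. Without both libraries with RNA of the other line the count was also 0, and without MM.1S IT848 replicate 1 the test called 2 of the 7 higher in MM.1S. NDUFV1, which binds the flavin that takes electrons from NADH, measured 185, 174 and 180.5 CPM with DMSO and 163.3, 177 and 167 CPM with IT848 in MM.1S (-0.09 ± 0.05, adjusted p = 0.141). NDUFS1, the largest iron-sulfur subunit, measured 269, 281 and 285 CPM with DMSO and 254, 274 and 298 CPM with IT848 (-0.02 ± 0.05, adjusted p = 0.844). In both genes the groups overlapped. The log2 fold changes of the 7 ran from -0.09 to 0.12, while those of the accessory genes ran from -0.07 to 0.59. The difference between core and accessory genes was not tested as such, since genes are not replicates of a condition.

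Complex II, which also works as succinate dehydrogenase of the citric acid cycle, split. SDHA, the catalytic subunit that holds the flavin, measured 311, 320.0 and 323 CPM with DMSO and 257, 246 and 235 CPM with IT848 in MM.1S. All treated libraries lay below all control libraries, and the log2 fold change was -0.37 ± 0.04 (adjusted p = 5.93e-06). In U266 SDHA measured 75.8, 73.8 and 74.7 CPM with DMSO and 66.6, 65.3 and 67.4 CPM with IT848, also without overlap (-0.17 ± 0.04, adjusted p = 0.0158). The fall in MM.1S was called under every alternative listed at the end. The fall in U266 was not called without the 2 libraries with RNA of the other line (adjusted p = 0.0784), nor without U266 DMSO replicate 1 (0.0571), U266 DMSO replicate 3 (0.0554) or U266 IT848 replicate 2 (0.0653).

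SDHC, a membrane anchor of complex II, went the other way in MM.1S. It measured 281, 282 and 283 CPM with DMSO and 316, 365 and 420.4 CPM with IT848, with no overlap (0.38 ± 0.07, adjusted p = 0.00107), while in U266 the means were 344 ± 8.43 and 344 ± 9.59 CPM (SD, n = 3). SDHB, the iron-sulfur subunit, measured 30.5, 34.2 and 33.9 CPM with DMSO and 32.7, 36.0 and 41.3 CPM with IT848 in MM.1S, and was not called (0.16 ± 0.09, adjusted p = 0.178). SDHD, the other anchor, was not called either (0.21 ± 0.10, adjusted p = 0.121). SDHA and SDHC transcripts are of like length, 2718 and 2742 bases.

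**Figure D2:**
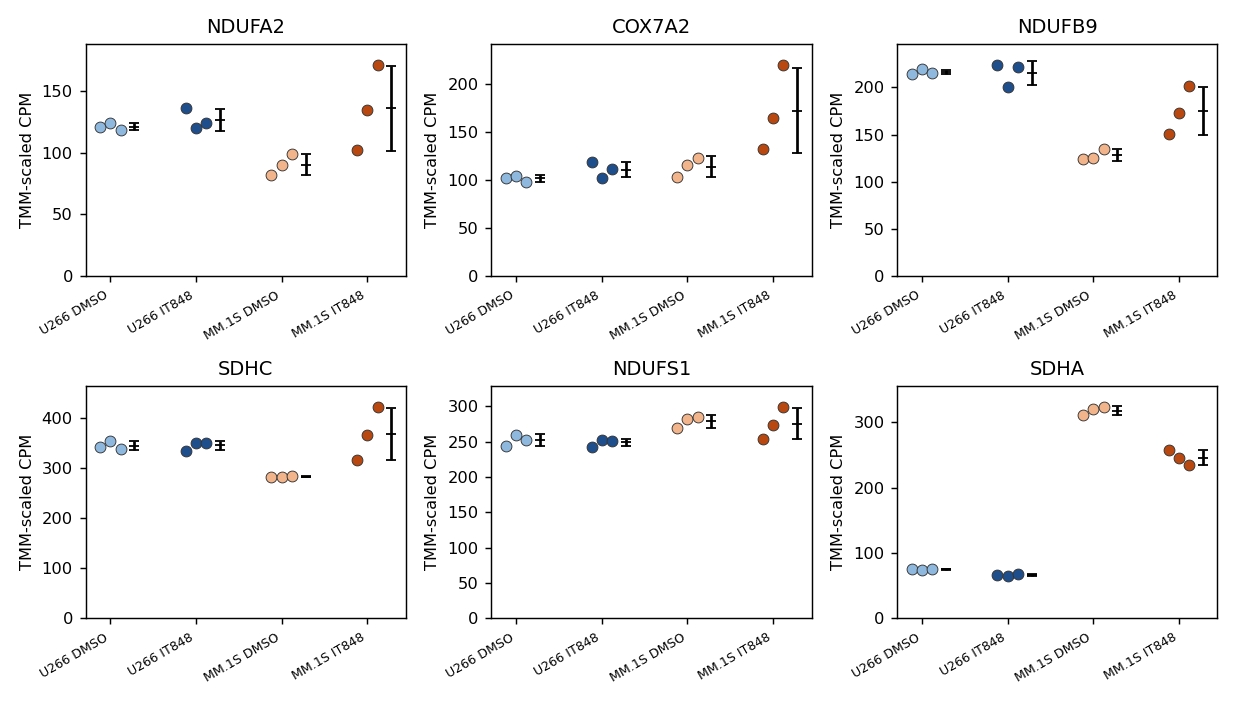
TMM-scaled CPM of 6 genes in each of the 12 libraries (vertical axes start at 0), with the mean and SD of each group (n = 3) beside the points. NDUFA2, COX7A2, NDUFB9 and SDHC lie higher in the IT848 libraries of MM.1S, NDUFS1 overlaps between the groups, and SDHA lies lower with IT848 in both lines and several times higher in MM.1S than in U266.

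In complex III 5 of 8 subunit genes rose in MM.1S (3 without the 2 libraries with RNA of the other line or without MM.1S DMSO replicate 2, and 2 without MM.1S DMSO replicate 1 or IT848 replicate 3). They were UQCRQ, UQCR11, UQCRH, UQCRB and UQCR10, which encode small subunits around the catalytic centre. UQCRQ measured 44.5, 49.0 and 53.6 CPM with DMSO and 52.6, 68.3 and 86.0 CPM with IT848, with an overlap at IT848 replicate 1 (0.49 ± 0.13, adjusted p = 0.0103). The 3 not called were UQCRC1 and UQCRC2, the large core proteins, and UQCRFS1, the Rieske iron-sulfur protein. UQCRC1 measured 51.4, 55.0 and 56.8 CPM with DMSO and 51.6, 56.2 and 60.6 CPM with IT848 (0.05 ± 0.06, adjusted p = 0.567). UQCRFS1 came to 0.10 ± 0.07 (adjusted p = 0.307).

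In complex IV 8 of 13 tested genes rose in MM.1S: COX7A2, COX7B, COX7C, COX7A2L, COX6A1, COX5B, COX6C and COX6B1. The count was 6 without the 2 libraries with RNA of the other line, 3 without MM.1S DMSO replicate 1, and 5 without MM.1S DMSO replicate 2 or IT848 replicate 3. COX7A2, the form of subunit 7a found in most tissues, measured 103, 116 and 124 CPM with DMSO and 132, 165 and 220.1 CPM with IT848, with no overlap (0.60 ± 0.14, adjusted p = 0.00474). COX7B, another small membrane subunit, measured 54.8, 55.6 and 67.0 CPM with DMSO and 66.8, 81.3 and 116 CPM with IT848, with an overlap of 1 library (0.57 ± 0.16, adjusted p = 0.0130, and 0.0539 without MM.1S DMSO replicate 1). COX5A and COX5B encode subunits on the matrix side. They differed: COX5A measured 69.9, 70.2 and 79.2 CPM with DMSO and 71.0, 71.1 and 74.4 CPM with IT848 (-0.02 ± 0.05, adjusted p = 0.807), and COX5B 54.7, 59.5 and 65.5 CPM with DMSO and 64.8, 73.0 and 94.3 CPM with IT848 (0.37 ± 0.12, adjusted p = 0.0264). The call for COX5B was lost without MM.1S DMSO replicate 1 (adjusted p = 0.105), MM.1S DMSO replicate 2 (0.0631) or MM.1S IT848 replicate 3 (0.0954).

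ATP synthase also split between its parts. Among the 5 subunits of the catalytic F1 head and its stalk, ATP5E (0.43) and ATP5C1 (0.41) rose, ATP5A1 fell, and ATP5B and ATP5D were not called. In ATP5E and ATP5C1 the groups overlapped. Without MM.1S IT848 replicate 3 they came to 0.26 (adjusted p = 0.0525) and 0.21 (adjusted p = 0.0611), and without MM.1S DMSO replicate 1 to 0.37 each (0.0674 and 0.0795); ATP5C1 was also not called without MM.1S DMSO replicate 2 (0.0703) or both libraries with RNA of the other line (0.0608). ATP5A1, the alpha subunit, measured 1241, 1298 and 1305 CPM with DMSO and 1085, 1181 and 1224 CPM with IT848 in MM.1S (-0.14 ± 0.04, adjusted p = 0.0200). No treated library reached a control library, but the call was lost without both libraries with RNA of the other line (adjusted p = 0.119) and on leaving out any 1 library other than MM.1S DMSO replicate 1, MM.1S IT848 replicates 2 and 3 and U266 IT848 replicate 1, and without MM.1S IT848 replicate 1 the log2 fold change was -0.07. ATP5B, the catalytic beta subunit, measured 415, 434 and 439.9 CPM with DMSO and 380.2, 419 and 457 CPM with IT848 (-0.04 ± 0.05, adjusted p = 0.640).

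Of the 10 other ATP synthase subunits, which form the membrane part and the peripheral stalk, 6 rose and 0 fell (ATP5L, ATP5J2, ATP5I, ATP5O, ATP5H and ATP5F1). The count was 4 without the 2 libraries with RNA of the other line, and 3 without MM.1S DMSO replicate 1, MM.1S DMSO replicate 2 or MM.1S IT848 replicate 3. ATP5L, subunit g, measured 159, 169.7 and 185 CPM with DMSO and 191, 224 and 281 CPM with IT848, with no overlap (0.44 ± 0.11, adjusted p = 0.00691). The genes ATP5G1, ATP5G2 and ATP5G3 encode the same mature protein of the rotating ring, subunit c. None of them was called in MM.1S (0.08, 0.04 and 0.20).

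Of the 11 genes that encode no subunit, 8 were tested and 4 were called higher in MM.1S. NDUFC2-KCTD14 (0.31) and ATP5J2-PTCD1 (0.28) share exons with NDUFC2 (0.29) and ATP5J2 (0.42), so their counts cannot be told apart from those genes. NDUFB2-AS1 (0.53) lies against NDUFB2 (0.56), and the strand used in counting is not given in the sources used here. ATP5S, a coupling factor, measured 7.93, 8.09 and 8.02 CPM with DMSO and 8.89, 9.91 and 9.83 CPM with IT848 in MM.1S, with no overlap (0.25 ± 0.07, adjusted p = 0.00816). ATP5SL, UQCRHL, NDUFA6-AS1 and NDUFV2-AS1 were not called; UQCRHL is a near copy of UQCRH and can share its reads.

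Transcript length moved with the response and with the libraries, and these genes are short. The median length was 938 bases over the respiratory chain genes tested and 2749 bases over all genes tested. Over all genes Spearman's correlation of length with the log2 fold change was -0.17 in MM.1S and -0.06 in U266, across 16782 genes that share the same libraries. Across the 86 respiratory chain genes tested the correlation was more negative, -0.30 in MM.1S and -0.34 in U266. It measures order and not the slope. Library by library, the correlation of length with the deviation from the line's mean was 0.24, 0.21 and 0.11 in the DMSO libraries of MM.1S and 0.03, -0.21 and -0.29 in its IT848 libraries. IT848 replicate 3, with the most negative correlation, was also the library with the highest share of counts on these genes. In U266 the 6 values ran from -0.12 to 0.14.

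Genes of like length can be set beside each other. In MM.1S the shortest of 10 equal length classes of all genes, up to 984 bases, had a median log2 fold change of 0.08 and 24.6% called higher. The 46 respiratory chain genes in that class had a median of 0.35, and 29 of them were called higher. In the next class, up to 1518 bases, the median was 0.10 over all genes and 0.30 over the 14 respiratory chain genes there. Measured from a smooth curve of the response against length over all genes, the median respiratory chain gene stood at 0.16 in MM.1S and at -0.02 in U266. The accessory genes of complex I stood at 0.20 and the core genes at -0.06 in MM.1S.

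When each library's length trend was removed before the test, 32 genes rose and 6 fell in MM.1S, with 18.9% of all genes called higher and 18.8% lower. All 32 were among the 47, and the median was 0.14. The 6 that fell were SDHA (-0.38), COX5A (-0.20), ATP5A1 (-0.18), NDUFV1 (-0.17), NDUFV2 (-0.13) and ATP5G1 (-0.12). COX7A2 and NDUFA2 each remained at 0.40, NDUFA4 at 0.53 and SDHC at 0.37, all called. NDUFA4 and SDHC have transcripts of 2058 and 2742 bases, near the typical length. COX5B (0.16, adjusted p = 0.107) and UQCRH (0.16, adjusted p = 0.1002) were no longer called. Of the accessory genes of complex I 14 were still called, and 2 of the 7 core genes, NDUFV1 and NDUFV2, were then called lower.

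For complex I, 4 core genes lie between 750 and 1000 bases, NDUFS3, NDUFS7, NDUFS8 and NDUFV2, none of them called in MM.1S, with log2 fold changes from 0.03 to 0.12. In the same range lie 7 accessory genes, NDUFA2, NDUFA8, NDUFB3, NDUFB5, NDUFB6, NDUFB8 and NDUFC1, of which 6 rose, with a median of 0.35 and a range from 0.01 to 0.59. NDUFC1 was the one not called. The other properties in which core and accessory genes differ were not tested.

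**Figure D3:**
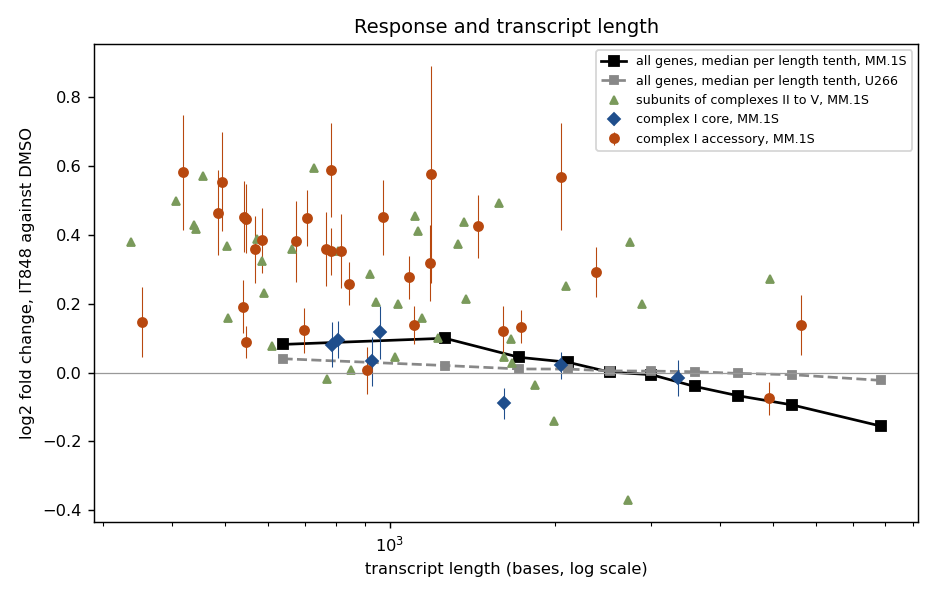
Log2 fold change with IT848 in MM.1S against transcript length in bases (log scale), for complex I core genes and accessory genes (error bars are SE) and for the other subunit genes, without COX6A2 and COX7B2. Squares joined by lines are medians over all genes in 10 equal classes of length, placed at the median length of each class, for MM.1S and U266. The MM.1S medians fall from 0.08 in the shortest class to -0.16 in the longest, and most accessory genes lie above that line, while the core genes, from -0.09 to 0.12, lie nearer to it.

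The response differed between the lines, by a test of the difference itself, for 9 genes. The difference, MM.1S minus U266, was called higher for 8 of the 86 and lower for 1, with 8.49% of all genes called higher and 8.94% lower. By count these genes are thus close to the background in the higher direction. The median difference was 0.22, against -0.02 over all genes, and 79 of the 86 differences were above 0. Length moved with this difference too. Over all genes Spearman's correlation of length with it was -0.15, and with each library's length trend removed the median over the 86 came to 0.13. The 8 were NDUFB7, NDUFB9, NDUFA11, ATP5S, SDHC, NDUFB8, NDUFB4 and NDUFV3, and the 1 was SDHA. The count of 8 moved with the libraries: it was 2 without both libraries with RNA of the other line and 41 without MM.1S IT848 replicate 1. It came to 2 without U266 DMSO replicate 2, to 3 without MM.1S DMSO replicate 1, to 4 without MM.1S DMSO replicate 2, U266 DMSO replicate 3 or U266 IT848 replicate 2, to 5 without MM.1S IT848 replicate 2, U266 DMSO replicate 1 or U266 IT848 replicate 1, and to 13 without MM.1S DMSO replicate 3. For these settings the share of all genes called is not given, so the counts have no background beside them. When 1 library was left out, only NDUFB9 and ATP5S kept the call in every case. SDHC lost it without U266 DMSO replicate 2 or U266 IT848 replicate 1, and NDUFB7 without MM.1S DMSO replicate 1, U266 DMSO replicates 2 and 3 or U266 IT848 replicate 2. NDUFB4 lost it without MM.1S DMSO replicates 1 and 2, any U266 DMSO library or U266 IT848 replicate 2, and NDUFV3 without MM.1S DMSO replicates 1 and 2, MM.1S IT848 replicate 2, U266 DMSO replicate 2 or U266 IT848 replicates 1 and 2. SDHA kept it only without MM.1S DMSO replicate 1, MM.1S IT848 replicate 1 or U266 IT848 replicate 2, NDUFB8 without MM.1S DMSO replicate 3, MM.1S IT848 replicate 1 or U266 IT848 replicate 2, and NDUFA11 without MM.1S DMSO replicate 3 or MM.1S IT848 replicate 1.

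NDUFB9, an accessory subunit of the membrane arm of complex I, measured 214, 219 and 215 CPM with DMSO and 224, 200.2 and 221 CPM with IT848 in U266. In MM.1S it measured 124, 126 and 135 CPM with DMSO and 151, 173 and 202 CPM with IT848. The groups overlapped in U266 and not in MM.1S, and the difference of the responses was 0.46 ± 0.11 (adjusted p = 0.0150). NDUFB7, in the same arm, measured 38.5, 39.0 and 41.5 CPM and then 39.8, 35.3 and 38.9 CPM in U266, and 24.7, 28.1 and 30.6 CPM and then 32.5, 37.1 and 44.2 CPM in MM.1S. Its difference was 0.51 ± 0.14 (adjusted p = 0.0239). Both genes started lower in MM.1S than in U266. With IT848 1 MM.1S library of each gene lay within the range of the U266 libraries.

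NDUFA11, also in the membrane arm, had a difference of 0.41 ± 0.13 (adjusted p = 0.0453), with 189.8, 202 and 225 CPM with DMSO and 242, 264 and 322 CPM with IT848 in MM.1S against means of 213 ± 5.46 and 215 ± 15.0 CPM (SD, n = 3) in U266. NDUFB8 came to 0.32 ± 0.10 (adjusted p = 0.0337) and NDUFB4 to 0.32 ± 0.09 (adjusted p = 0.0229), both without overlap in MM.1S. NDUFV3, an accessory subunit beside the NADH site, came to 0.22 ± 0.07 (adjusted p = 0.0404), and ATP5S to 0.39 ± 0.09 (adjusted p = 0.00825). SDHC came to 0.38 ± 0.10 (adjusted p = 0.0220). For SDHA, which fell in both lines, the difference was -0.20 ± 0.06 (adjusted p = 0.0257). The genes with the largest rises in MM.1S, COX7A2 (0.47, adjusted p = 0.118) and NDUFA2 (0.53, adjusted p = 0.0819), had no called difference.

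Under DMSO the lines differed in most of these genes, in both directions; this comparison shares its DMSO libraries with those above. In MM.1S 38 were higher than in U266 (44.2%, against 40.6% of all genes) and 28 lower (32.6%, against 42.1%). The higher share was thus close to the background and the lower share below it. Without the 2 libraries with RNA of the other line the counts were 33 higher and 24 lower, and with 1 length trend removed over all 12 libraries 48 and 20. SDHA stood out: 75.8, 73.8 and 74.7 CPM in U266 against 311, 320.0 and 323 CPM in MM.1S, 4.25-fold higher (log2 2.09 ± 0.04, adjusted p = 2.56e-15). SDHD measured 109, 115 and 109 CPM in U266 and 228, 241 and 255 CPM in MM.1S (1.12 ± 0.10, adjusted p = 3.24e-07). SDHB was higher in MM.1S as well (0.27 ± 0.09, adjusted p = 0.0122, but 0.0537 without U266 DMSO replicate 1 and 0.0896 without U266 DMSO replicate 3) and SDHC lower (-0.29 ± 0.07, adjusted p = 0.00233). The median over the 4 complex II genes was 0.69 and that over the subunit genes of complex III 0.34, against -0.02 over all genes. For complex IV it was -0.24, with 3 genes higher and 6 lower, but 0.07, with 6 higher and 4 lower, once 1 length trend over all 12 libraries was removed, so its direction depended on that step.

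NDUFA9, an accessory subunit at the joint of the 2 arms of complex I, measured 11.97, 12.1 and 12.2 CPM in U266 and 33.8, 34.9 and 36.5 CPM in MM.1S (1.53 ± 0.08, adjusted p = 6.57e-11). COX7B (1.07), ATP5L (0.96) and NDUFV2, a core iron-sulfur subunit (0.84), were also higher in MM.1S. Among the genes that were lower in MM.1S, NDUFC1 measured 347, 354 and 306 CPM in U266 and 125, 115 and 130.1 CPM in MM.1S (-1.44 ± 0.07, adjusted p = 4.15e-11). ATP5I, subunit e of ATP synthase, measured 71.3, 71.7 and 75.5 CPM in U266 and 20.4, 23.1 and 25.5 CPM in MM.1S (-1.66 ± 0.12, adjusted p = 1.34e-08). ATP5S came to -1.36 ± 0.06 (adjusted p = 2.72e-11). In NDUFA9, NDUFC1, ATP5I, ATP5S, SDHA and SDHD no library of one line reached the range of the other.

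**Figure D4:**
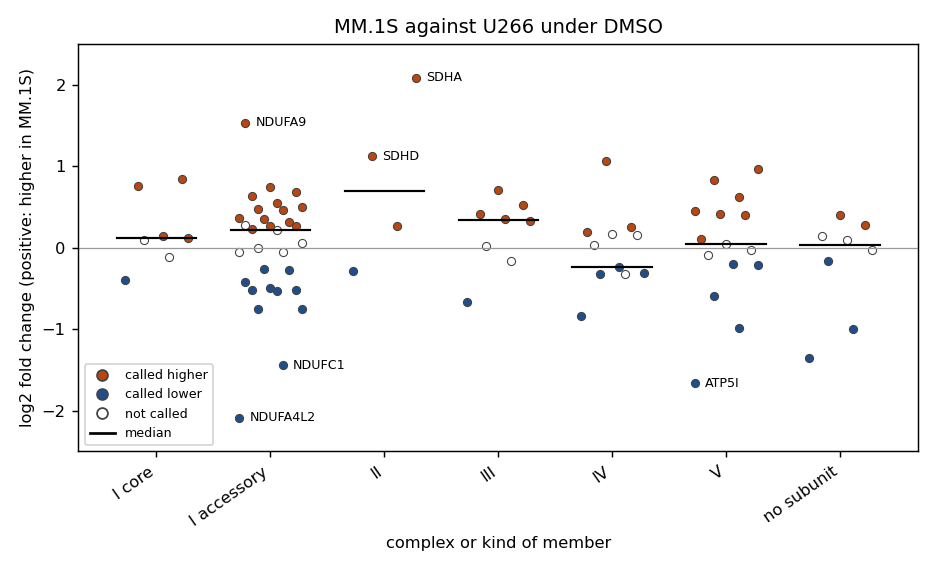
Log2 fold change of MM.1S against U266 under DMSO for each respiratory chain gene, by complex; positive values are higher in MM.1S, filled points were called, and bars are medians. COX6A2 and COX7B2, nearly absent from MM.1S, are off the scale and left out. SDHA (2.09), NDUFA9 (1.53) and SDHD (1.12) are the highest points, and NDUFA4L2 (-2.09), ATP5I (-1.66) and NDUFC1 (-1.44) the lowest.

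Several subunits of complex IV have tissue-specific forms, and 2 of these separated the lines by presence. COX6A2, the form of subunit 6a known from heart and skeletal muscle, had 133, 183 and 172 counts in the DMSO libraries of U266 and 0, 1 and 0 counts in those of MM.1S. COX7B2, a copy of COX7B known from testis, had 135, 131 and 135 counts in U266 and 0, 2 and 0 in MM.1S. The 1 COX6A2 count and the 2 COX7B2 counts in MM.1S lay in DMSO replicate 2, where U266-specific genes also stood out. The source of these counts was not tested. Both genes had 0 counts in all 3 IT848 libraries of MM.1S. In U266 with IT848 COX6A2 had 101, 103 and 197 counts and COX7B2 143, 140 and 170, and neither was called.

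Per transcript length, by the deposited FPKM of each gene's most counted transcript, the muscle and testis forms were minor in U266 too. Under DMSO COX6A2 stood at 6.26 ± 0.670 FPKM against 101 ± 4.66 FPKM for COX6A1 (SD, n = 3), and COX7B2 at 4.20 ± 0.319 against 62.6 ± 5.21 FPKM for COX7B. COX7A1 stayed at or below 0.282 FPKM in every DMSO library, against 68.5 ± 1.98 FPKM for COX7A2 in U266 and 75.3 ± 6.48 FPKM in MM.1S. COX6B2 and COX8C were at most 0.201 and 0.0987 FPKM in any library, against 80.7 ± 2.14 FPKM for COX6B1 and 155 ± 3.83 FPKM for COX8A in U266 with DMSO. NDUFA4L2, the hypoxia-associated relative of NDUFA4, stood at 0.932 ± 0.164 FPKM in U266 and 0.219 ± 0.0843 FPKM in MM.1S, against 26.0 ± 2.39 and 31.1 ± 2.40 FPKM for NDUFA4. Of the subunit c genes, ATP5G3 stood at 19.9 ± 0.200 FPKM in U266 and 34.9 ± 1.63 FPKM in MM.1S. ATP5G2 was lower in MM.1S, at 42.7 ± 1.92 FPKM against 46.4 ± 0.740 FPKM, and neither gene overlapped between the lines. ATP5G1 stood at 51.4 ± 0.550 and 49.5 ± 2.51 FPKM, with an overlap.

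**Figure D5:**
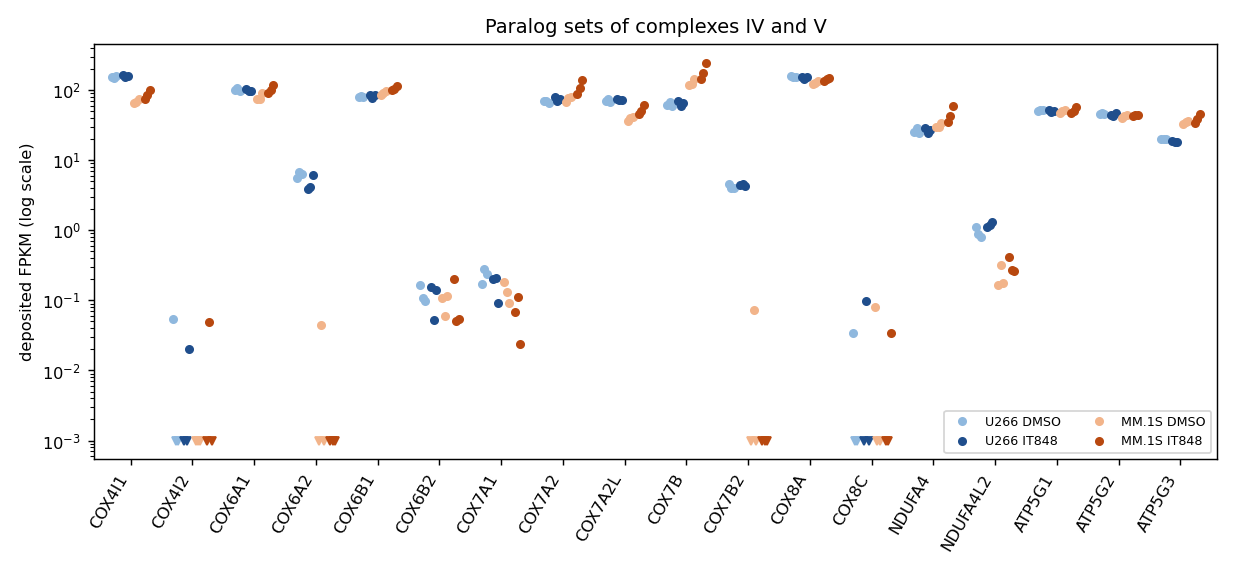
Deposited FPKM (log scale) of genes that encode alternative forms of the same subunit, in every library of the 4 groups; triangles at the bottom are values listed at 0. COX6A2 and COX7B2 are present in U266 and listed at 0 in all but 1 library of MM.1S. The major forms COX6A1, COX7A2, COX7B, COX6B1, COX8A and NDUFA4 lie well above COX6A2, COX7A1, COX7B2, COX6B2, COX8C and NDUFA4L2, in that order, in all libraries. COX7A2L, also shown, is no minor form: it had 47052 counts over all libraries, against 88281 for COX7A2 and 82 for COX7A1.

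By the same per-length level, the order of the genes was led in U266 with DMSO by ATP5E (225 ± 10.4 FPKM), COX7C (224 ± 10.6 FPKM) and ATP5B (178 ± 2.93 FPKM), and the first 2 did not differ beyond their spread. In MM.1S with DMSO ATP5B (231 ± 6.11 FPKM) and COX7C (225 ± 20.3 FPKM) led, again within their spread, followed by NDUFV2 (179 ± 10.1 FPKM). With IT848 COX7C (313 ± 71.1 FPKM) came first in MM.1S and ATP5B (223 ± 17.1 FPKM) second; their spreads are wide, since COX7C differed among the 3 libraries. In complex II SDHA was the lowest of the 4 genes in U266 (13.6 ± 0.222 FPKM) and the highest in MM.1S (56.7 ± 0.889 FPKM), with SDHB at 24.1 ± 2.34 and 28.5 ± 1.72 FPKM.

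For want of counts 5 of the 91 genes were not tested: ATP5EP2, ATP5L2, COX7A1, COX8C and UQCRBP1, whose counts per library lay between 0 and 13. COX6B2, tested, had between 5 and 19 counts per library and was called in no comparison. No gene was at 0 in all libraries.

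Genes that work with the respiratory chain were grouped into 5 lists by known function. The first list held 7 genes whose symbols the name rule misses, subunit genes and ATPIF1, which encodes an inhibitor of ATP synthase. Of these 6 were tested, and 5 rose and 0 fell in MM.1S: USMG5 (0.56), C14orf2 (0.44), ATPIF1 (0.36), NDUFAB1 (0.36) and COX4I1 (0.33). CYC1, the cytochrome c1 of complex III, was not called (-0.06), and COX4I2 was too low to test. In U266 none of the 6 was called. Of 48 assembly factors, which help to build the complexes without staying in them, 19 rose and 4 fell in MM.1S, with a median of 0.15, and none was called in U266. The 19 rises became 13 without the 2 libraries with RNA of the other line, 9 without MM.1S IT848 replicate 3, 11 without MM.1S DMSO replicate 1, 12 without MM.1S DMSO replicate 2 and 28 without MM.1S IT848 replicate 1; with the length offset 11 rose and 8 fell. The largest changes were in COA6 (0.80 ± 0.11, adjusted p = 6.3e-05), C6orf57 (0.67 ± 0.25, adjusted p = 0.0450) and CMC1 (0.65 ± 0.12, adjusted p = 0.00054); COA6 serves the copper centre of complex IV. C6orf57 was not called without MM.1S DMSO replicates 1 or 2, MM.1S IT848 replicates 2 or 3, U266 DMSO replicate 1 or U266 IT848 replicate 1.

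Of 20 genes for electron carriers and coenzyme Q synthesis, 7 rose and 4 fell in MM.1S, led by GPD2 (0.65), DHODH (-0.50) and SQRDL (0.44), all enzymes that pass electrons to coenzyme Q. In U266 COQ10A fell (-0.25) and no other was called; it was not called without U266 DMSO replicates 1 or 3 or U266 IT848 replicates 1 or 2. Of 18 citric acid cycle genes, MM.1S had 2 called higher and 4 lower, and U266 had 3 called lower. IDH2, the NADP-dependent mitochondrial isocitrate dehydrogenase, fell in both lines (-0.41 in U266 and -0.36 in MM.1S), as did CS, citrate synthase (-0.15 and -0.29), whose call in U266 was kept only without MM.1S IT848 replicate 1 or 3 when 1 library was left out. The median of this list in MM.1S was -0.03. Of 20 regulators of mitochondrial gene expression, 5 rose and 7 fell in MM.1S, led by PPRC1 (-0.60), PPARGC1B (-0.47), both coactivators of genes for mitochondria, and C10orf2, the mitochondrial DNA helicase (-0.44). PPARGC1A of the same list went the other way and was among the 5 that rose. It was not called without both libraries with RNA of the other line (0.23). The call was also lost without any 1 of the MM.1S DMSO libraries or MM.1S IT848 replicates 1 and 2 (0.19 to 0.25). The 5 rises became 2 without MM.1S DMSO replicate 1, and 3 without both libraries with RNA of the other line or any 1 of MM.1S DMSO replicates 2 and 3 and IT848 replicates 2 and 3. In U266 1 regulator, ESRRA, rose (0.23), a call kept only without MM.1S IT848 replicate 1 or 3 or U266 DMSO replicate 3. For comparison, 18.7% of all genes were called higher and 19.6% lower in MM.1S.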

How the data were processed

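RNA of U266 and MM.1S cells (4 groups of 3 libraries) was read on an Illumina HiSeq instrument, according to the labels. Per the submitters' processing notes, Trimmomatic 0.36, STAR 2.5.2b, featureCounts of Subread 1.5.2 and the build hg19 were used; for strand and multiply mapped reads no setting is given in the sources used here. The authors deposited, per transcript, a read count, an FPKM value and a TPM value. The TPM was not analysed; the FPKM served for levels per length and, with the count, to recover each transcript's length.

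Counts were summed per symbol. Tests used edgeR 4.0.16 in R 4.3.3 (quasi-likelihood, TMM scaling, filterByExpr with a minimum count of 10, all 12 libraries, group means, Benjamini-Hochberg over 16782 genes, calls at 0.05), checked on simulated data; limma 3.58.1 supports edgeR, and DESeq2 1.42.0 was an alternative. The length offset subtracted each library's lowess curve (fraction 0.3) of its deviation from its line's mean on log2 length. Other alternatives covered scaling, filtering, the most counted transcript, a replicate block and leaving out libraries.

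The genes and lists were chosen with earlier results of these data known. Named genes were the up to 6 called members with the largest rise and fall per comparison, fixed core subunits and paralog sets. Also named were members that encode no subunit, the up to 3 largest calls per neighbouring list and the list of genes the name rule misses. Others named were chosen after their values were seen. Same-numbered libraries of the 2 treatments were not paired by any label.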

Additional observations from a re-analysis of the deposited data

Results flagged for a closer look

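In 9 respiratory chain genes the response to IT848 differed between the lines by the test of the difference itself (MM.1S minus U266, log2 scale). The 8 called higher are 9.30% of the 86 tested, against 8.49% of all genes; without both libraries with RNA of the other line 2 were called higher and 0 lower, and only NDUFB9 and ATP5S kept the call when any 1 library was left out. It was larger in MM.1S for NDUFB7 (0.51), NDUFB9 (0.46), NDUFA11 (0.41), ATP5S (0.39), SDHC (0.38), NDUFB8 (0.32), NDUFB4 (0.32) and NDUFV3 (0.22), each with all 3 treated libraries of MM.1S above all 3 control libraries. For SDHA the difference was -0.20, with a fall in both lines.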

How the results depend on the processing

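In 23 alternative settings the median response of the tested respiratory chain genes in MM.1S stayed above 0, and the 47 rises fell below their main count by more than 1.5 times only with 1 length trend over all 12 libraries (29, an alternative chosen after seeing the data) and without MM.1S DMSO replicate 1 or IT848 replicate 3; leaving out 1 library gave 26 to 59 rises and 1 to 2 falls. The 2 falls became 1 with no low-count filter, with the libraries of MM.1S alone and without both libraries with RNA of the other line, 6 with the length offset and 10 with the offset over all libraries. In U266 the 1 fall became 3 with DESeq2, 2 with the most counted transcript, 3 with either length offset, 3 with its own libraries alone (where 1 gene rose) and 0 without both mixed libraries; leaving out 1 library gave 0 rises and 0 to 2 falls. Differences between the lines called higher numbered 21 with DESeq2 and 2 without both mixed libraries, where 0 were called lower; leaving out 1 library gave 2 to 41 higher and 0 to 1 lower. Under DMSO, MM.1S against U266, leaving out 1 library gave 30 to 39 higher and 23 to 30 lower, and the median of 0.10 became 0.24 with the offset over all libraries. Leaving out 1 library moved the medians over 0.18 to 0.35 (MM.1S), -0.01 to 0.03 (U266), 0.09 to 0.11 (lines under DMSO) and 0.15 to 0.33 (difference of responses). Except for the length offset in MM.1S, the share of all genes called is not given for these settings. The counts in them therefore have no background beside them. The causes of these shifts were not tested.

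Libraries share replicate numbers, but no label pairs them. Deviations of same-numbered libraries correlated at 0.060, 0.005 and -0.001 in U266 and 0.117, -0.056 and 0.1001 in MM.1S. Those of differently numbered libraries ran from -0.038 to 0.034 in U266 and from -0.148 to 0.041 in MM.1S. With 3 libraries a group these values do not decide whether the numbers pair cultures. With the replicate block MM.1S had 54 rises, U266 2 falls and the lines 46 higher differences. With the block and the length offset there were 44 rises and 10 falls in MM.1S, 4 falls in U266 and 33 higher differences. How many of all genes were called with the block is not given, so these counts cannot be set against a background. The block lies within a line, so MM.1S against U266 could not be fitted with it.

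Some uncalled values near 0 changed sign. In MM.1S these were NDUFS1 (0.011 with the length offset, 0.0073 with block and offset, 0.0035 with its own libraries, 0.0012 without both mixed libraries, 0.0088 with the offset over all libraries), UQCRC1 (-0.036, -0.037 with the block and -0.027 over all libraries), UQCRFS1 (-0.028, -0.030 and -0.024 in the same order) and COX5A (4.1e-05 with its own libraries). COX5B in U266 came to -8.8e-05 without both mixed libraries, and UQCRC1 between the lines to -0.032 with upper-quartile scaling. On leaving out 1 library, ATP5B ran from -0.094 to 0.049, COX5A from -0.048 to 0.044, NDUFS1 from -0.069 to 0.058 and UQCRC1 from -0.0036 to 0.122 in MM.1S; COX5B ran from -0.00026 to 0.153, NDUFS1 from -0.045 to 0.00745, NDUFV1 from -0.053 to 0.00055 and SDHB from -0.107 to 0.041 in U266; and UQCRC1 ran from -0.0028 to 0.068 between the lines.

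Limits: 3 libraries a group, of unstated origin; 1 compound, dose and time; transcript counts that repeat reads; no strand; no protein or respiration. For want of counts 5 genes were not tested.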
